A study of Mus musculus with 9 samples.

Results

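The 10 genes of apical polarity and epithelial trafficking were read in every library of the series. They are *Mal2*, *Rab25*, *Crb3*, *Pard6b*, *Llgl2*, *Myo5b*, *Ap1m2*, *Misp*, *Lad1* and *Arhgef16*, 10 of the 55276 gene symbols in the count table, taken by symbol, and 9 of the 17672 genes with enough counts to be tested. They were picked as a group with their levels in these libraries already known, so that their differences between knockout and wild type cells are given below as values, without a test. The difference between the knockout clones was tested.

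The cells were PPTR cells, a mouse intrahepatic cholangiocarcinoma line grown in medium with serum. Its source model carries Prom1CreERT2, in which *Prom1* drives an inducible Cre, with Ptenflx/flx, Tp53flx/flx and a Rosa-ZsGreen reporter, and every group shares these alleles. Wild type (WT) cells were compared with KO1 and KO2, each grown from a single cell after Cas9 cutting in exon 2 of *Vcam1*, a cell adhesion receptor. Each group gave 3 mRNA libraries from different passages in culture, 9 in all, and the question was what the loss of *Vcam1* changes in the tumor cells. Each clone is a single line, so an effect of the guide and a property of the cell that was picked cannot be told apart. The spread between libraries of WT, KO1 or KO2 is that between passages of the same line. In the combined contrast KO1 and KO2 form a single group, so the spread there also holds the difference between the clones.

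Epithelial cells, those of bile ducts among them, have an apical side that faces the lumen and a basolateral side that faces neighbours and tissue. The Crumbs and Par complexes mark the apical side and the Scribble complex, to which Llgl2 belongs, marks the basolateral side. Membrane proteins then reach each side through adaptors that sort them in the trans-Golgi and in endosomes, recycling vesicles that carry Rab GTPases, and motors that pull these vesicles along actin.

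Library totals lay between 53415907 and 125223073 counts, and levels below are CPM, counts scaled to a common library total with TMM factors. The limit of detection was set at 3 counts in a library, which is 0.0239 to 0.0554 CPM, and intervals and limits cover counting error only. *Vcam1* itself was read at 221 to 329 CPM in WT, 92.4 to 128 CPM in KO1 and 83 to 119 CPM in KO2. The epithelial and biliary markers summed to 13569 to 15249.9 CPM in WT, with all 10 over the limit in every library. They summed to 10618 to 11078 CPM in KO1, where 6 of 10 were over the limit in every library, and to 7635 to 11082 CPM in KO2, where 7 of 10 were and *Epcam*, *Krt18* and *Cldn4* stood at or under it. The fibroblast and stellate markers summed to 431 to 836 CPM in WT, 10474 to 13048 CPM in KO1 and 6219 to 7531 CPM in KO2, with 8, 9 and 8 of 12 over the limit in every library. At or under it were *Lum*, *Lrat* and *Reln* in WT, *Lrat* in KO1, and *Lum* and *Lrat* in KO2. The hepatocyte markers, 6 in the list, summed to 45.4 to 184 CPM in WT, 1.6 to 3.02 CPM in KO1 and 0.222 to 0.514 CPM in KO2. The 7 haematopoietic and the 6 endothelial markers summed to at most 20.7 and 2.44 CPM in any library, with *Cd3e* at or under the limit in each group. The part of these shifts in the results below was not tested, and in bulk RNA fewer cells of a type and less RNA per cell cannot be told apart. Among libraries of the same group, replicate 3 of KO1 stood farthest from its fellows, and the values without it are covered at the end.

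Of the 9 genes tested, 8 lay below WT in KO1, in KO2 and in both clones together, and *Rab25* did not. For comparison, 21.2% of all genes tested were called lower in the combined contrast of 6 KO with 3 WT libraries, 30.0% in KO1 and 26.1% in KO2, at an adjusted p under 0.05. In 8 of the 10 every KO library was lower than every WT library, a pattern that 23.0% of all genes tested showed. As the genes were picked on this contrast, nothing is read from these counts. The median log2 fold change of the 9 was -8.93, where the median over all genes tested was 0.07. The label of the group held for 8 genes only, since *Rab25* and *Ap1m2* were near the limit of detection in WT cells as well.

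**Figure D1:**
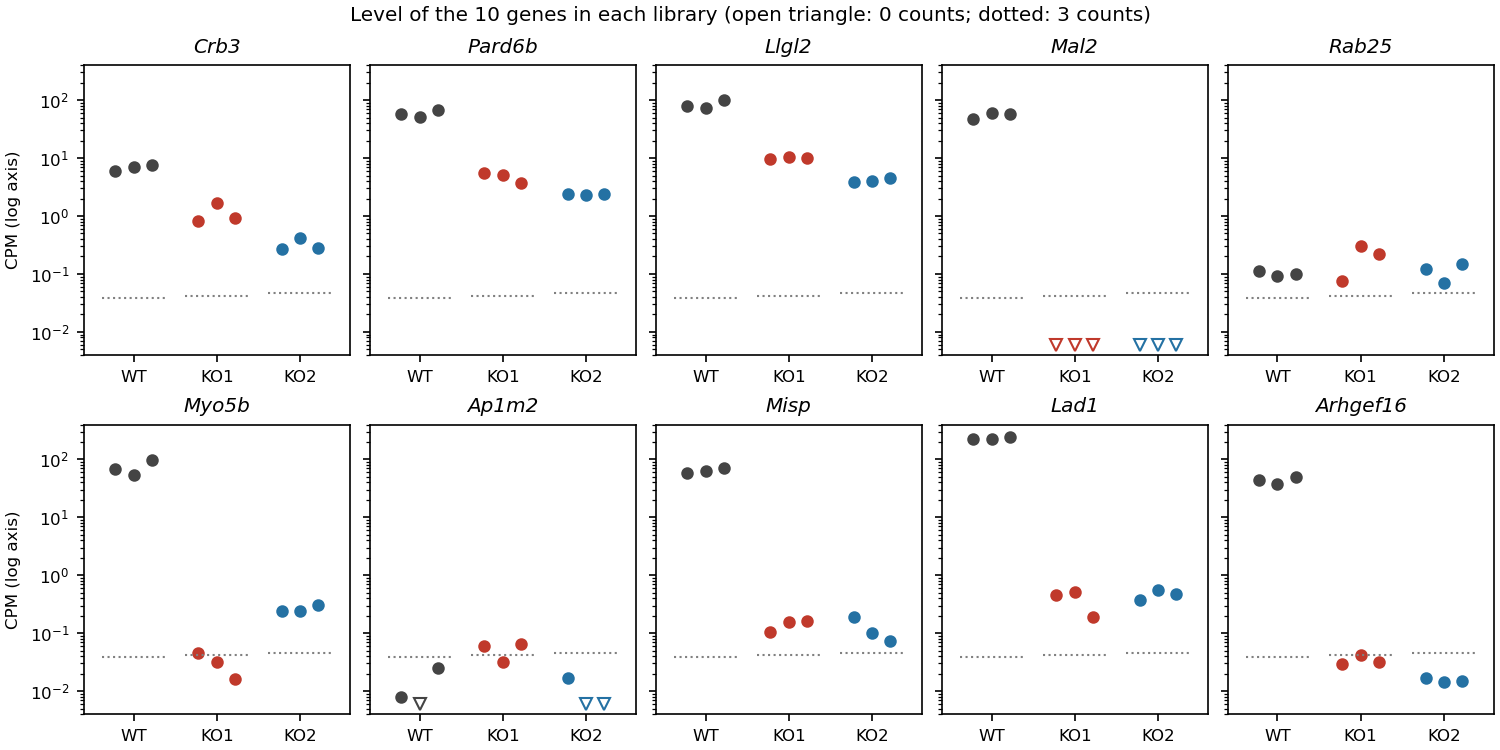
Level of each of the 10 genes in CPM (log axis) in the 3 WT, 3 KO1 and 3 KO2 libraries, with a point per library, open triangles for 0 counts and a dotted line at the mean of the 3-count limit in each group. All KO points of *Mal2* are at 0, *Crb3*, *Pard6b* and *Llgl2* keep levels over the limit in both clones, and *Rab25* and *Ap1m2* are low in every library.

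*Crb3* encodes the small transmembrane protein that anchors the Crumbs complex at the apical membrane of epithelia. It lies on chromosome 17 (57059105 to 57065918, plus strand, GRCm38) under the identifier ENSMUSG00000044279.15. The WT libraries gave 6.06, 6.9 and 7.61 CPM, those of KO1 0.824, 1.67 and 0.942 CPM and those of KO2 0.274, 0.424 and 0.281 CPM. The 3 groups did not overlap, and KO2 was the lowest. The clones kept 16.7% (KO1) and 4.76% (KO2) of the WT mean, and the log2 fold change of both clones together was -3.21 (SE 0.55). KO1 exceeded KO2 by 1.81 on the log2 scale (SE 0.33, edgeR adjusted p = 0.00267). Here and hereafter an edgeR adjusted p is from the quasi-likelihood F test of edgeR, adjusted by Benjamini-Hochberg over all genes tested. The SE of a fitted log2 value is its size divided by the square root of the F statistic of that test. It is approximate, and for genes with few counts in a group it can be too small.

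*Pard6b* encodes a Par6 protein, which brings atypical protein kinase C and Cdc42 together in the Par complex. It lies on chromosome 2 (168081004 to 168101203, plus strand) under ENSMUSG00000044641.7. Its levels were 56.7, 50.4 and 66.4 CPM in WT, 5.48, 5.17 and 3.7 CPM in KO1 and 2.4, 2.28 and 2.35 CPM in KO2. No KO library came near the WT range, and every KO1 library was over every KO2 library. The WT mean of 57.8 ± 8.1 CPM (SD, n = 3) compares with 4.78 ± 0.948 CPM in KO1 and 2.34 ± 0.0616 CPM in KO2, or 8.27% and 4.05% of it. The clones differed by 1.03 on the log2 scale (SE 0.17, edgeR adjusted p = 0.00175).

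*Llgl2*, a mammalian Lethal giant larvae protein that holds the apical kinase complex off the basolateral membrane, had the most counts left in the clones. The gene spans 115824049 to 115855780 on the plus strand of chromosome 11 (ENSMUSG00000020782.18). It was read at 80.1, 72.2 and 100.1 CPM in WT, at 9.6, 10.3 and 9.83 CPM in KO1 and at 3.82, 4 and 4.44 CPM in KO2. The SD was at most 0.334 CPM in either clone, and the 3 ranges were apart. KO1 kept 11.8% and KO2 4.86% of the WT mean. The difference of 1.28 on the log2 scale between clones had an SE of 0.14 (edgeR adjusted p = 0.00018).

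*Mal2* encodes a lipid raft protein of the MAL family that carries cargo from the basolateral to the apical membrane in liver and other epithelia. It lies at 54571192 to 54602847 on the plus strand of chromosome 15 (ENSMUSG00000024479.3). The WT libraries held 5895, 3267 and 4565 counts, or 47, 60.3 and 57.7 CPM. Not a single count was found in the 6 KO libraries. Set against 3 counts in each KO library, the level was at least 1258-fold lower than the WT mean over both clones, and at least 1329-fold lower in KO1 and 1193-fold lower in KO2. A difference between the clones could not be seen, since both were at 0.

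*Myo5b* encodes the myosin V motor that moves Rab11-positive recycling endosomes toward the apical membrane. It is the longest of the 10 genes, at 74440936 to 74771493 on the plus strand of chromosome 18 (ENSMUSG00000025885.18). In WT it was read at 67.8, 54.7 and 98.4 CPM. KO1 held 3, 3 and 1 counts and KO2 held 14, 17 and 21, so that only KO2 was over the limit in each library. The pooled counts left 0.0418% of the WT level in KO1 (exact 95% interval 0.0168% to 0.0861%) and 0.355% in KO2 (0.265% to 0.466%). Against the other genes that differed, *Myo5b* was the lower in KO1, by 3.02 on the log2 scale (SE 0.44, edgeR adjusted p = 0.000854).

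*Rab25*, a Rab11-type GTPase of epithelial recycling endosomes, was barely present in any group. It is on the minus strand of chromosome 3 at 88542029 to 88548300 (ENSMUSG00000008601.12). The libraries held 14, 5 and 8 counts in WT, 5, 29 and 14 in KO1 and 7, 5 and 10 in KO2. The ranges overlapped throughout, and the log2 difference of KO1 from KO2 was 0.85 (SE 0.52, edgeR adjusted p = 0.225). *Ap1m2*, the medium chain of the epithelial AP-1B adaptor for basolateral sorting, is on the minus strand of chromosome 9 at 21294275 to 21312337 (ENSMUSG00000003309.14). It held 1, 0 and 2 counts in WT, 4, 3 and 4 in KO1 and 1, 0 and 0 in KO2 and was too low to be tested. No loss of either gene can be read from these cells, as the wild type level left little to lose.

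*Misp*, an actin-binding protein of the cell cortex that helps to place the mitotic spindle, is on the plus strand of chromosome 10 at 79820989 to 79830490 (ENSMUSG00000035852.11). It stood at 58.7, 62 and 71.6 CPM in WT, at 0.105, 0.157 and 0.16 CPM in KO1 and at 0.188, 0.099 and 0.074 CPM in KO2. The clones lay in the same range, which was 0.224% of WT in KO1 (0.153% to 0.317%) and 0.185% in KO2 (0.117% to 0.277%) by pooled counts. Their log2 difference was 0.26 (SE 0.34, edgeR adjusted p = 0.584).

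*Lad1*, ladinin, an anchoring filament protein of epithelial basement membranes, is on the plus strand of chromosome 1 at 135818598 to 135833342 (ENSMUSG00000041782.14). The WT libraries gave 225, 223 and 243 CPM, the closest agreement among the 10 genes, with a coefficient of variation of 4.84%. KO1 gave 0.464, 0.511 and 0.192 CPM and KO2 gave 0.377, 0.551 and 0.473 CPM, and the clones overlapped. Their log2 difference was -0.24 (SE 0.30, edgeR adjusted p = 0.553).

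*Arhgef16*, an ephexin-type guanine nucleotide exchange factor, is on the minus strand of chromosome 4 at 154278486 to 154301676 (ENSMUSG00000029032.12). It was read at 43.3, 37.1 and 49.6 CPM in WT. The KO1 libraries held 2, 4 and 2 counts and each KO2 library held 1. Pooled, that is 0.0808% of WT in KO1 (0.0349% to 0.159%) and 0.0347% in KO2 (0.00716% to 0.101%), and these intervals overlap. The log2 difference of 1.13 between clones (SE 0.45, edgeR adjusted p = 0.289) thus rests on 8 and 3 counts, too few for its SE to be relied on.

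Compared per length, in TPM, counts divided by the summed exon length of each gene and scaled to the library, the WT levels ran from *Lad1* (201 ± 8.11, SD, n = 3) through *Misp* (66.8 ± 6.41), *Mal2* (55.3 ± 6.88), *Llgl2* (51.5 ± 8.42) and *Pard6b* (50.5 ± 6.72) to *Arhgef16* (23.5 ± 3.24), *Myo5b* (22.4 ± 6.64) and *Crb3* (13 ± 1.37). *Rab25* (0.18 ± 0.0178) and *Ap1m2* (0.0104 ± 0.0121) were far below. Neighbours in this order from *Mal2* to *Pard6b* lay within their SDs, as did *Arhgef16* and *Myo5b*. The gaps depended on the length used. With the length of the longest coding transcript *Mal2* (42.9 ± 5.59) came after *Llgl2* (53.6 ± 9.01), and *Arhgef16* was at 34.8 ± 4.9 beside 25.1 ± 7.58 for *Myo5b*. The polarity genes *Crb3*, *Pard6b* and *Llgl2* were the 3 that kept over 4% of their WT level in both clones, while the other 5 of the 8 kept under 0.4%.

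Between the clones, 4 of the 9 genes tested differed, 3 of them higher in KO1 (*Crb3*, *Pard6b*, *Llgl2*) and *Myo5b* lower. Over all genes tested, 38.7% differed between the clones and 20.2% were higher in KO1, so 4 of 9 is close to the background. The median log2 difference of the 9 was 0.85, where that of all genes was 0.04. That median is the value of *Rab25*, near the limit of detection and not passing the test (edgeR adjusted p = 0.225). No shift of the group is read from it.

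**Figure D2:**
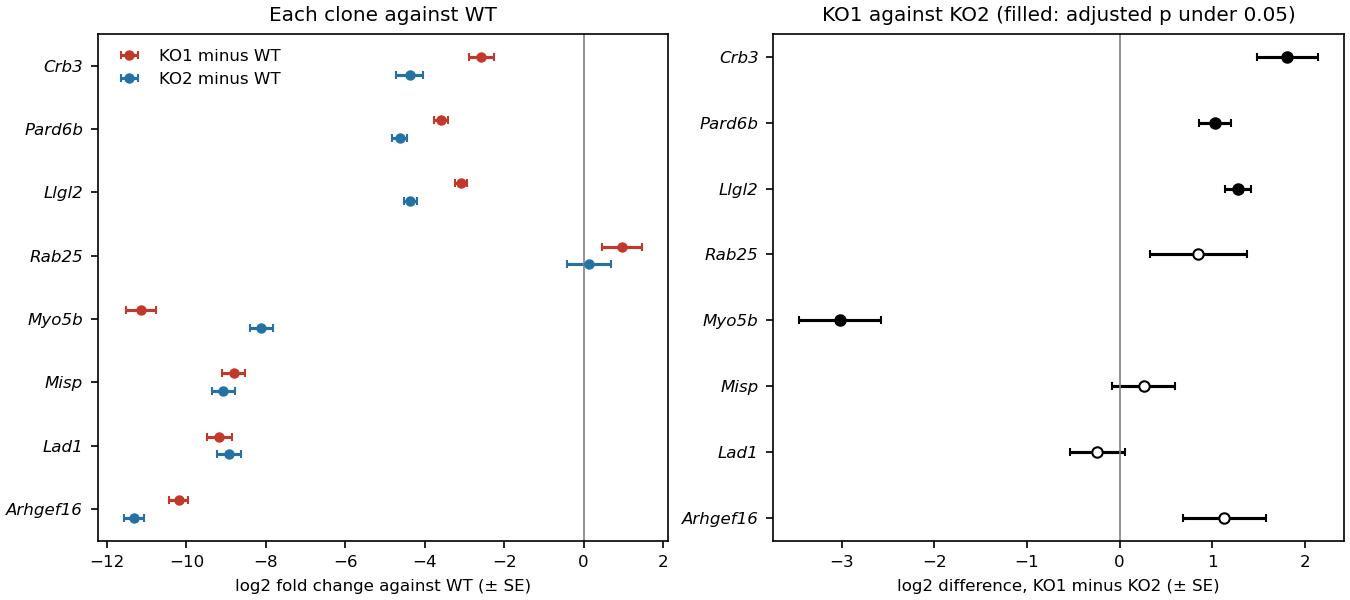
Left, log2 fold change of KO1 and of KO2 against WT with its SE for the 8 tested genes that had counts in the clones. Right, log2 difference of KO1 minus KO2 with its SE, filled where the edgeR adjusted p was under 0.05. The difference was 1.81 for *Crb3*, 1.28 for *Llgl2*, 1.03 for *Pard6b* and -3.02 for *Myo5b*. The SE is approximate and can be too small for genes with few counts, such as *Arhgef16*.

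Each gene was then set beside its close relatives. Of the 15 relatives tested, 6 fell, 4 rose and 5 did not pass the test in the combined contrast, where 21.2% of all genes fell and 21.7% rose. The relatives had gone in different directions from one family to the next.

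In the Par6 family, *Pard6g* rose where *Pard6b* was low. Its libraries gave 1.56, 1.18 and 1.21 CPM in WT, 11.8, 11.8 and 15.5 CPM in KO1 and 26.9, 26.2 and 21.7 CPM in KO2, a log2 fold change of 3.84 (SE 0.38, edgeR adjusted p = 5.44e-05). *Pard6a* changed by -0.56 (SE 0.27, edgeR adjusted p = 0.114). Per length, *Pard6b* made up 60.4% to 78.4% of the Par6 transcripts in WT, 9.2% to 15.2% in KO1 and 5.13% to 6.33% in KO2. The sum of the 3 relatives was 68.2 to 73.3 TPM in WT and 34.6 to 39.6 in the clones, so the rise of *Pard6g* was smaller than what *Pard6b* lacked.

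Among the class V myosins, *Myo5a* rose from 57.1 ± 4.77 CPM in WT to 158 ± 9.68 CPM in KO1 and 119.8 ± 1.7 CPM in KO2 (SD, n = 3 each, log2 fold change 1.28, SE 0.16, edgeR adjusted p = 0.00018). *Myo5c*, an epithelial relative, fell from 89.5 ± 12.7 CPM to 2.3 ± 1.31 and 4.34 ± 1.02 CPM (-4.75, SE 0.40, edgeR adjusted p = 1.95e-05). *Myo5b* was 32.3% to 41.4% of the family per length in WT and at most 0.378% in any KO library. *Myo5a* was thus nearly the whole family in the clones, at a family sum of 25.3 to 38.8 TPM against 51.6 to 71.6 in WT.

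The ubiquitous relatives of the silent members were plentiful. *Rab11a* fell (log2 fold change -0.75, SE 0.12, edgeR adjusted p = 0.00113) and *Rab11b* rose (0.70, SE 0.14, edgeR adjusted p = 0.00291), and their sum with *Rab25* was 142 to 155 TPM in WT and 143 to 174 in the clones. *Rab25* never made up more than 0.378% of it. *Ap1m1*, the medium chain of AP-1A, stood at 77.9 ± 8.14 CPM in WT, 71.6 ± 0.858 CPM in KO1 and 80.7 ± 3.76 CPM in KO2 (-0.03, SE 0.11, edgeR adjusted p = 0.828). *Llgl1*, the relative of *Llgl2*, changed by -0.22 (SE 0.09, edgeR adjusted p = 0.0796), so that *Llgl2* went from 44.5% to 50% of the pair per length in WT to 9.86% to 11.8% in KO1 and 4.5% to 5.28% in KO2.

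*Mal*, the relative of *Mal2* that sorts apical cargo, behaved like it, with 13.7 ± 5.37 CPM in WT and 0 counts in all 6 KO libraries, at least 330-fold lower in KO1 and 296-fold lower in KO2. *Crb2* fell from 7.18 ± 2.26 CPM to 0.548 ± 0.095 and 0.427 ± 0.119 CPM (-3.88, SE 0.30, edgeR adjusted p = 1.12e-05), and *Crb1* was too low to test. Of the ephexins, *Arhgef26* fell by 10.66 on the log2 scale (SE 0.65, edgeR adjusted p = 3.45e-06), a fitted value that rests on 0 to 6 counts per KO library. *Arhgef5* fell by 1.05 (SE 0.18, edgeR adjusted p = 0.0015), while *Arhgef19* rose from 3.31 ± 0.736 CPM to 37.7 ± 3.34 and 42.8 ± 3.75 CPM (3.60, SE 0.19, edgeR adjusted p = 1.62e-06). *Ngef* changed by -2.34 (SE 0.94, edgeR adjusted p = 0.0701), with 28.4 ± 7 CPM in WT, 0.769 ± 0.00875 CPM in KO1 and 10.5 ± 4.33 CPM in KO2. *Arhgef15* changed by 2.02 (SE 0.91, edgeR adjusted p = 0.102). It was low throughout, at 0.0999 ± 0.0642 CPM in WT, 0.113 ± 0.0455 CPM in KO1 and 0.688 ± 0.149 CPM in KO2. *Arhgef16* made up 20.1% to 21.8% of the ephexin transcripts per length in WT and at most 0.0485% in any KO library.

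**Figure D3:**
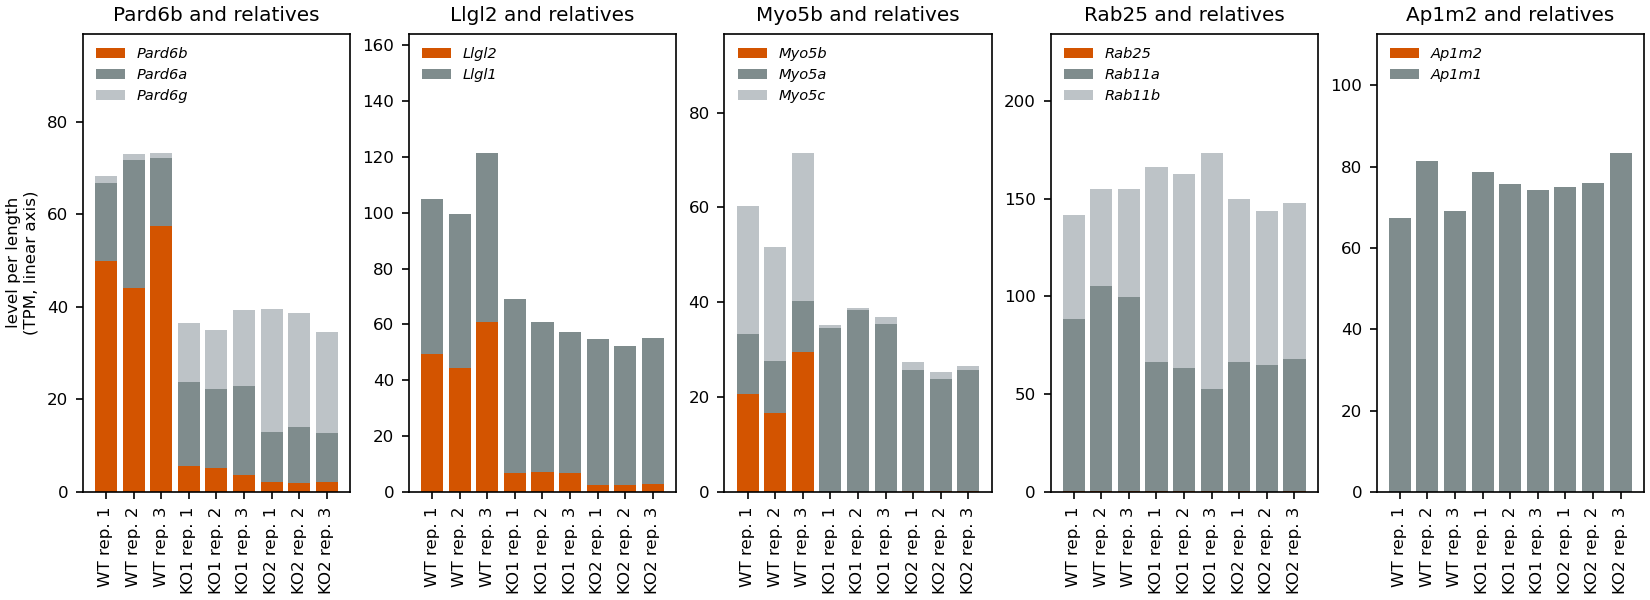
Level per length (TPM, linear axis) of *Pard6b*, *Llgl2*, *Myo5b*, *Rab25* and *Ap1m2*, in orange, stacked with their relatives, in grey, in each of the 9 libraries. *Pard6g* and *Myo5a* make up most of what is left of their families in KO2, while *Rab11a* with *Rab11b* and *Ap1m1* fill theirs in every library.

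The partners of the polarity genes were set beside them. Of 23 polarity genes tested, apart from the members, 9 fell, 5 rose and 9 did not pass the test, beside 21.2% of all genes that fell and 21.7% that rose, with a median log2 fold change of -0.32 against 0.07 over all genes. *Prkcz*, atypical protein kinase C zeta, fell from 24.2 ± 3.9 CPM to 0 to 5 counts per KO library (-9.74, SE 0.69, edgeR adjusted p = 7.08e-06). *Patj*, the scaffold of the Crumbs complex, fell from 39.2 ± 4.89 CPM to 3.06 ± 0.362 and 1.13 ± 0.327 CPM (-4.22, SE 0.43, edgeR adjusted p = 6.56e-05). In contrast *Mark1*, a Par1 kinase, rose from 0.418 ± 0.0594 CPM to 48.9 ± 16.1 CPM in KO1 and 98.8 ± 34.2 CPM in KO2 (7.45, SE 0.58, edgeR adjusted p = 1.28e-05).

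Some further partners were looked up after their values were seen. *Mpp5*, which joins Crb3 to Patj, fell by 1.98 on the log2 scale (SE 0.17, edgeR adjusted p = 1.96e-05) and *Pard3* by 0.86 (SE 0.13, edgeR adjusted p = 0.000679). *Prkci*, the other atypical protein kinase C, changed by -0.25 (SE 0.18, edgeR adjusted p = 0.296) from a WT level of 79.8 ± 6.49 CPM. Of the basolateral partners of *Llgl2*, *Scrib* changed by -0.18 (SE 0.15, edgeR adjusted p = 0.378) and *Dlg1* fell by 0.44 (SE 0.12, edgeR adjusted p = 0.012), a call that was lost without replicate 3 of WT (adjusted p = 0.0513, range over all alternatives 0.00148 to 0.0513).

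Among 33 tested genes of apical recycling and exocytosis, 12 fell, 6 rose and 15 did not pass the test, with a median of -0.12. *Rab17*, an epithelial Rab of apical recycling, fell from 15.1 ± 2.05 CPM to 0 to 11 counts per KO library (-7.89, SE 0.84, edgeR adjusted p = 7.73e-05). *Sytl5*, a Rab27 effector, fell from 3.8 ± 1.7 CPM to at most 5 counts (-6.43, SE 0.67, edgeR adjusted p = 7.03e-05). *Rab11fip2*, which links Rab11 to myosin V, rose from 14.8 ± 2.52 CPM to 36.4 ± 6.95 and 32.9 ± 5.97 CPM (1.22, SE 0.19, edgeR adjusted p = 0.000706). *Stxbp2*, a partner of the apical syntaxin and chosen after its values were seen, fell by 1.56 (SE 0.14, edgeR adjusted p = 3.38e-05). In this list the losses and gains came to 12 and 6 of 33, beside 21.2% and 21.7% of all genes, and with the average of the clones' contrasts 11 rose.

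Of the 7 genes of the AP-1 adaptor other than *Ap1m2*, 1 fell and 0 rose, beside 21.2% and 21.7% of all genes. With the average of the clones' contrasts 4 fell. The gene called in the combined contrast was *Ap1g2*, which went from 29.7 ± 0.673 CPM to 10.1 ± 1.71 and 11.8 ± 0.911 CPM (-1.44, SE 0.15, edgeR adjusted p = 6.29e-05). The large chains *Ap1b1* (0.09, SE 0.12, edgeR adjusted p = 0.584) and *Ap1g1* (-0.28, SE 0.15, edgeR adjusted p = 0.162) and the small chain *Ap1s1* (0.08, SE 0.24, edgeR adjusted p = 0.801), looked up after their values were seen, did not pass the test. In the MAL family 2 of 4 tested genes fell and 0 rose, too few to set against the shares of all genes. *Pllp* (plasmolipin) fell by 6.37 on the log2 scale (SE 0.68, edgeR adjusted p = 8.21e-05) beside *Mal*.

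Genes of the apical cortex and microvillus, where Misp and Myo5b act, were taken as a list with this contrast already known, as were the other lists, so their counts are a description. Of 20 tested, 15 fell, 0 rose and 5 did not pass the test, where 21.2% of all genes fell and 21.7% rose. The median log2 fold change was -4.38, against 0.07 over all genes. *Eps8l3*, an actin regulator, fell from 46.7 ± 15.6 CPM in WT to 0.0188 ± 0.0101 CPM in KO1 and 0 in KO2 (-12.04, SE 0.53, edgeR adjusted p = 6.14e-07). *Cdhr2*, a protocadherin that links microvillus tips, fell from 53.2 ± 22.5 CPM to 0.0169 ± 0.0154 and 0.00986 ± 0.0171 CPM (-11.72, SE 0.57, edgeR adjusted p = 1.02e-06). *Eps8l3* and *Cdhr2* held at most 2 counts in any KO library, under the limit of detection. Set against 3 counts, they were at least 1069-fold and 1216-fold lower, so their fitted log2 values are of uncertain size. *Vil1*, villin, which bundles microvillus actin, fell from 98.5 ± 6.2 CPM to 0.0269 ± 0.0304 and 0.0646 ± 0.0277 CPM (-11.03, SE 0.45, edgeR adjusted p = 4.22e-07). *Ezr*, ezrin, which ties actin to the membrane, was still at 150.5 ± 9.32 and 132 ± 3.46 CPM after a fall from 1022 ± 143 CPM (-2.86, SE 0.13, edgeR adjusted p = 5.99e-07). Villin and ezrin were looked up after their values were seen.

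Of 12 tested genes of the ephexins and the RhoG route in which Arhgef16 acts, 5 fell and 4 rose, beside 21.2% and 21.7% of all genes, with a median of -0.35. *Elmo3* fell from 38.9 ± 7.74 CPM to 3.55 ± 0.205 and 1.49 ± 0.126 CPM (-3.95, SE 0.37, edgeR adjusted p = 3.68e-05) and *Elmo1* rose from 8.44 ± 2.56 CPM to 20.4 ± 5.67 and 25.1 ± 1.77 CPM (1.43, SE 0.26, edgeR adjusted p = 0.00172). *Epha2*, a receptor tyrosine kinase that binds Arhgef16, was looked up after its values were seen and fell from 321 ± 9.08 CPM to 27.1 ± 7.22 and 97 ± 6.84 CPM (-2.37, SE 0.50, edgeR adjusted p = 0.00456).

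**Figure D4:**
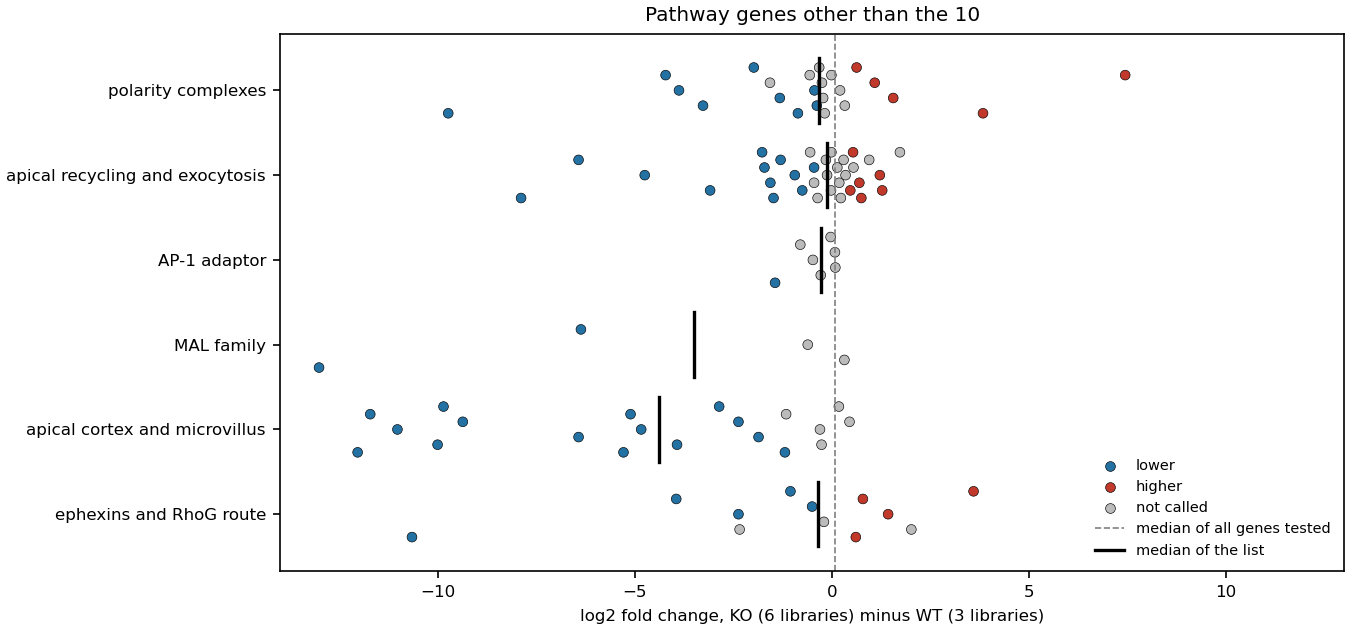
Log2 fold change of KO (6 libraries) minus WT (3 libraries) of the tested genes in 6 pathway lists that leave out the 10 members, with a point per gene, colored by the call at an edgeR adjusted p under 0.05, the list's median as a bar and that of all genes tested as a dashed line. The apical cortex list has 15 of 20 genes lower and its median at -4.38. *Mal*, at 0 counts in every KO library, is drawn at its fitted value, which depends on the default prior count of edgeR.

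The nearest tested neighbours on the chromosome, the gene before and the gene after each member, were read next. Of these 20, 4 fell, 5 rose and 11 did not pass the test, which is close to the 21.2% and 21.7% of all genes that fell and rose. None overlapped its member. With the average of the clones' contrasts 9 rose, and without replicate 1 or replicate 2 of WT 3 rose. *Palm* lies 103 bases from *Misp* and rose from 64.4 ± 10.3 CPM to 122 ± 13.7 and 159 ± 10.7 CPM (1.13, SE 0.18, edgeR adjusted p = 0.000797). *Colec10*, 105005 bases from *Mal2* and at only 0.163 ± 0.0458 CPM in WT, rose by 3.72 (SE 0.63, edgeR adjusted p = 0.00123). *Acaa2*, 6513 bases from *Myo5b*, rose by 1.08 (SE 0.17, edgeR adjusted p = 0.000905). *Tsen54*, 926 bases from *Llgl2*, fell by 0.65 (SE 0.12, edgeR adjusted p = 0.00233).

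In 2 places the next gene was well expressed in WT and low in both clones. *Myo15b*, 2144 bases beyond *Llgl2*, went from 162 ± 26.7 CPM to 0.397 ± 0.199 CPM in KO1 and 0.0106 ± 0.00929 CPM in KO2 (-9.60, SE 0.94, edgeR adjusted p = 4.96e-05), beside -3.59 (SE 0.37) for *Llgl2*. *Tnnt2*, a troponin gene 2973 bases beyond *Lad1*, went from 106 ± 7.98 CPM to 0.592 ± 0.105 and 4.96 ± 0.483 CPM (-5.26, SE 0.81, edgeR adjusted p = 0.00074). The pseudogene *Gm13132*, 57400 bases from *Arhgef16*, fell from 0.257 ± 0.0626 CPM to 0 counts (edgeR adjusted p = 0.00146). The rises of *Mex3a* beside *Rab25* (0.41, SE 0.14, edgeR adjusted p = 0.0413) and of *Slc44a2* beside *Ap1m2* (0.82, SE 0.25, edgeR adjusted p = 0.0241) did not hold under every alternative.

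The other 11 neighbours did not pass the test. They were *Ccn3* (0.49, with 3.3 ± 0.912 CPM in WT, 0.101 ± 0.0676 CPM in KO1 and 9.19 ± 0.75 CPM in KO2, and -1.72 with the average of the clones' contrasts), *Lamtor2* (-0.18), *Slc25a23* (0.53), *Dennd1c* (2.03), *Ripor3* (-0.05), *Gm20716* (0.37), *Mbd1* (0.07), *Cdkn2d* (0.87), *E130317F20Rik* (1.13), *Tnni1* (1.32) and *Prdm16* (1.84), with log2 fold changes in brackets.

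**Figure D5:**
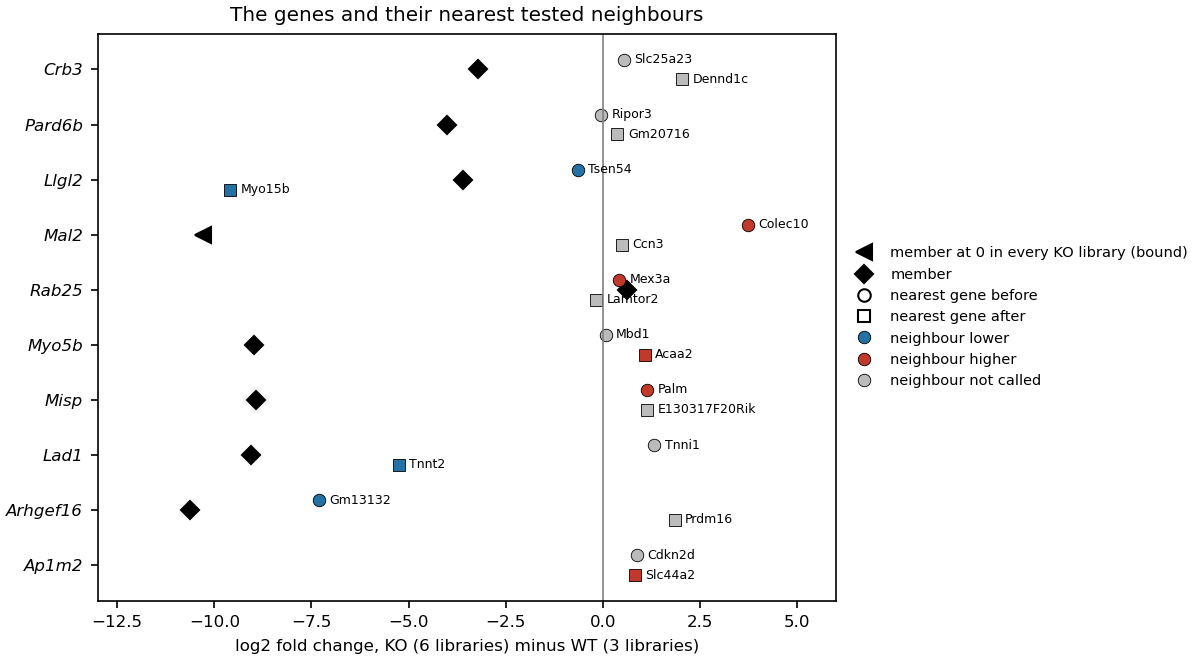
Log2 fold change of KO minus WT of each member (black diamond, or a triangle at the bound for *Mal2*) and of the nearest tested gene before it (circle) and after it (square), colored by call. *Ap1m2* has no value. *Myo15b* at -9.60 and *Tnnt2* at -5.26 are lower like their members, while *Palm* beside *Misp* and *Acaa2* beside *Myo5b* are higher. On their other sides *E130317F20Rik* (1.13) and *Mbd1* (0.07) did not pass the test. *Ccn3* beside *Mal2* is drawn at 0.49 from clones on opposite sides of WT.

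The promoters of the members were read for a pair of motifs. CAGGTG is the E-box that Zeb and Snail repressors bind at epithelial genes, and AACCNGTT is the site of Grainyhead-like activators, both searched on either strand. RefSeq promoters of GRCm38.p6, from 250 bases before a listed start of a gene to 50 after it, were given for 6 of the 10 genes. Those of *Crb3* and *Arhgef16* lie within the gene spans given above, at starts inside the gene. CAGGTG was present in 5 of the 6 (*Crb3*, *Pard6b*, *Rab25*, *Ap1m2* and *Arhgef16*) and in 20.2% of all 32851 promoters of that length. The 6 genes had 57.6% to 77.6% G and C in their promoters, where the median of all promoters was 52.4%. The shares are thus not matched for base composition, and no enrichment is read from them. AACCNGTT was present in *Rab25* only, and in 2.09% of all promoters. The E-box was present in *Rab25* and *Ap1m2*, near the limit of detection in every group, and in 3 of the 4 others. *Lad1* held none in this window. A link of the motif to the levels was not tested.

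The 250 bases before the start of *Pard6b* and *Lad1* are shown because, of the promoters given, these lie outside any annotated UTR, and they differ in the motif. *Pard6b* (chr2:168080754-168081003, plus strand) has 77.6% G and C and the E-box, in capitals, with its first base 141 and 86 bases before the start. *Lad1* (chr1:135818348-135818597, plus strand) has 57.6% G and C and no E-box.
Pard6b: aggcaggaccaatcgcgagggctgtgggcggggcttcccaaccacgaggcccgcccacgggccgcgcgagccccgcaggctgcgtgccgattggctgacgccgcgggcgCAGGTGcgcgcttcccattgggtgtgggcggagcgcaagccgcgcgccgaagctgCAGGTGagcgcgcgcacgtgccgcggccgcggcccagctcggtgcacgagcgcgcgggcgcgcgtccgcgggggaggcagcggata
Lad1: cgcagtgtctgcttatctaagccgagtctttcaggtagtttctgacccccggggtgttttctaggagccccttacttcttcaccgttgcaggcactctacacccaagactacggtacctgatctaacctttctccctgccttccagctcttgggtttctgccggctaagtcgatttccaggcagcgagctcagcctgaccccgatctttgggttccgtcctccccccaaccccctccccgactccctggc

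For the other 4 genes the E-box is shown in 26 bases around it, with the letters of either strand of the motif in capitals, to let the spacing be seen. *Crb3* (plus strand) has it at 118, 63 and 7 bases before its first listed start, in chr17:57062073-57062098, chr17:57062128-57062153 and chr17:57062184-57062209. *Arhgef16* (minus strand) has it at 150, 127 and 75 bases, in chr4:154300030-154300055, chr4:154300007-154300032 and chr4:154299955-154299980. *Rab25* (minus strand, chr3:88548323-88548348) has a pair of them in opposite orientation, from 64 bases before the start. *Ap1m2* (minus strand) has 4, shown as chr9:21312399-21312424, chr9:21312369-21312394 and chr9:21312333-21312358, the last with a pair of them.
Crb3, 118 before: cctgtgcttaCACCTGctcatttccg
Crb3, 63 before: gttcccgttaCAGGTGctctggcggc
Crb3, 7 before: cagccaggctCAGGTGcacaagccgg
Arhgef16, 150 before: ccggcgcggcCAGGTGaggcggtggt
Arhgef16, 127 before: ggtggtgcagCAGGTGcccagggcgc
Arhgef16, 75 before: tggcggagccCACCTGgccccggctc
Rab25, 64 before: ccaccCACCTGtgcccCAGGTGccca
Ap1m2, 81 before: ccgtgcctctCACCTGgcggcctccc
Ap1m2, 51 before: aagacgcattCACCTGgcggcctccc
Ap1m2, 21 before: cgctCACCTGgcggctCACCTGggcg

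The factors named for these motifs were expressed as follows. *Zeb1* rose from 30.5 ± 2.13 CPM to 77.4 ± 6.98 and 66.8 ± 5.32 CPM (1.24, SE 0.12, edgeR adjusted p = 5.58e-05) and *Zeb2* from 19 ± 4.05 CPM to 37.6 ± 3.3 and 47.7 ± 7.54 CPM (1.16, SE 0.20, edgeR adjusted p = 0.00128). *Snai1* rose by 1.70 (SE 0.46, edgeR adjusted p = 0.0152), a call lost without replicate 1 or replicate 3 of WT (adjusted p = 0.0699 and 0.0639, range over all alternatives 0.00126 to 0.0699). *Snai2* changed by 0.03 (SE 0.57, edgeR adjusted p = 0.97), from clone means on opposite sides of WT. It stood at 15.6 ± 8.36 CPM in WT, 24.4 ± 8.47 CPM in KO1 and 7.5 ± 0.907 CPM in KO2. *Grhl1* fell from 3.52 ± 0.614 CPM to 0.409 ± 0.227 and 0.276 ± 0.122 CPM (-3.36, SE 0.41, edgeR adjusted p = 0.00018). *Grhl3* fell as well (-3.30, SE 0.83, edgeR adjusted p = 0.0102), from a WT level of 0.203 ± 0.0384 CPM. *Grhl2* did not pass the test (0.91, SE 0.74, edgeR adjusted p = 0.349), with 0.245 ± 0.0916 CPM in WT, 0.15 ± 0.038 CPM in KO1 and 0.765 ± 0.198 CPM in KO2. Binding of any of them was not measured here.

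The mean log2 CPM of the 10 genes was 3.78, 3.70 and 4.06 in WT, -1.85, -1.58 and -1.88 in KO1 and -2.10, -2.21 and -2.18 in KO2. Among 10870 other genes with a mean of at least 5 CPM, those whose log2 CPM followed it most closely over the 9 libraries were *Cdx2* (r = 0.9989), an intestinal transcription factor, *F2rl1* (r = 0.9986), a protease-activated receptor, and *Eps8l3*, *Myrf* and the desmosome gene *Dsp* (each r = 0.9982). The points share 3 groups of libraries and their depth, and 98 genes had an r over 0.99, so the value mostly records a large step between WT and both clones. *Cdx2* stood at 17.7 ± 3.2 CPM and *F2rl1* at 389 ± 23.3 CPM in WT, with at most 1 and 4 counts in any KO library.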

How the data were processed

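PPTR cells were sequenced in stranded mRNA libraries, and the deposited values are kallisto 0.46.1 estimated counts per gene symbol, made by the authors on GRCm38 transcripts. The step that summed transcripts to genes is not given in the sources used here. All estimates were whole numbers (0 were not) and 0 columns of values were left out. Groups follow the genotype labels. Paralogs with shared sequence depend on how kallisto split their reads.

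Counts were scaled with TMM, filtered with filterByExpr (17672 genes kept) and tested with edgeR 4.0.16 quasi-likelihood (R 4.3.3), with Benjamini-Hochberg adjustment over all genes and a threshold of 0.05. KO against WT used 2 groups and the other contrasts 3 groups, over all 9 libraries. The fit with 2 groups counts the KO libraries as replicates of a single group, though they are passages of KO1 and KO2 only. The script was tested on simulated data. Log2 levels used a prior count of 2, and fitted log2 fold changes used the default prior count of edgeR. Positions and exon lengths are from GENCODE vM21, another release than that of the counts, neighbours and promoters from RefSeq GRCm38.p6. Neighbours are the nearest tested gene on each side. Pairs of libraries of a group differed beyond sampling noise, with a chi-square per degree of freedom of at least 35.8.

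The members and lists were chosen with earlier results of these data known. Named genes are the members, tested relatives, neighbours and motif factors, the 2 largest rises and falls of each list past the threshold with at least 1 CPM in the higher group, and the 5 genes most like the members' mean. Alternatives were limma-voom (3.58.1), DESeq2 (1.42.0), other size factors, other filters, the mean of both clone contrasts, fits on the libraries of the groups compared, other gene lengths and leaving out each library. Other gene lengths were used for the members' levels only, so family shares and sums rest on summed exon lengths.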

Additional observations from a re-analysis of the deposited data

Results flagged for a closer look

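The clones differed in 4 members, as log2 difference of KO1 minus KO2 with an edgeR adjusted p under 0.05 (quasi-likelihood, Benjamini-Hochberg): *Crb3* by 1.81, *Pard6b* by 1.03, *Llgl2* by 1.28 and *Myo5b* by -3.02. Such a difference was present in 36 of the 80 genes checked in this way, where 38.7% of all genes tested had one. Genes looked up after their values were seen are among them.

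Among polarity genes, KO1 exceeded KO2 in *Patj* (1.43) and *Mpp5* (0.48) and was below it in *Mark1* (-1.02), *Pard6g* (-0.94) and *Scrib* (-0.41). Among trafficking and cortex genes, KO1 was the higher in *Myo5a* (0.40), *Rab27a* (3.72), *Sytl4* (4.23) and *Ap1g1* (0.43), and the lower in *Rab17* (-3.00), *Pllp* (-1.90), *Ap1s1* (-0.58), *Podxl* (-3.89), *Pls1* (-3.56) and *Eps8* (-1.90).

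In the ephexin and RhoG list the difference was 1.25 for *Elmo3*, -3.76 for *Ngef*, -0.52 for *Arhgef5*, -2.60 for *Arhgef15* and -1.84 for *Epha2*. Among motif factors it was 1.70 for *Snai2* and -2.32 for *Grhl2*, neither of which passed the test in both clones together. Of the neighbours, *Ccn3* (-6.41), *Ripor3* (-2.00), *Gm20716* (-0.42) and *Tnnt2* (-3.08) were lower in KO1. *Slc25a23* (1.24), *Dennd1c* (2.47), *Myo15b* (5.06), *Acaa2* (0.41), *E130317F20Rik* (1.16) and *Prdm16* (10.08) were higher in KO1, the last against 0 counts in KO2, so that its size depends on the default prior count of edgeR.

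A single library stood away from the other 5 KO libraries for 2 genes of 81 checked, both times replicate 3 of KO1, with *Elmo1* the lowest at 14 CPM and *Rab11b* the highest at 224 CPM. Chance gives such a gap in about 1 of 20 groups.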

How the results depend on the processing

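The 8 members below WT and the 4 that differed between the clones stayed at 8 and 4 under all 16 alternatives, those without replicate 3 of KO1 included. With the average of the clones' contrasts, 11 instead of 6 recycling genes and 9 instead of 5 neighbours were higher and 4 instead of 1 AP-1 genes lower, *Ccn3* turned to -1.72 and *Prdm16* to -2.20 on the log2 scale. A filter at a mean of 1 CPM left 1 motif factor lower, since fewer genes were tested. Leaving out single libraries gave 3 to 7 neighbours higher, with 3 without replicate 1 or replicate 2 of WT, and -0.14 to 0.38 for *Rab25* in KO2 against WT. *Mex3a* lost its call under 13 of 16 alternatives (adjusted p 0.0222 to 0.205), and *Slc44a2* without replicate 1 or 2 of WT (adjusted p = 0.0787 and 0.108, range over all alternatives 0.00433 to 0.108). *Ngef* passed the threshold under 4 alternatives, among them limma-voom (-3.39, adjusted p = 0.00698, range over all alternatives 2.56e-06 to 0.168), and *Llgl1* under 4 (adjusted p 0.0228 to 0.246). Over all values of single genes, 27 gained a call, 18 lost it and 3 turned sign. The median log2 fold change of all genes was between 0.01 and 0.12 under every alternative. No paired analysis was possible because the labels number the libraries from end to end and share no replicate number between groups. With 1 to 4 counts in a library, the levels of *Arhgef16* and of *Myo5b* in KO1 are limited by depth.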

Other observations

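A few other genes of the lists differed between the clones and were looked up after their values were seen. *Podxl*, podocalyxin of the apical glycocalyx, stood at 149 ± 38.5 CPM in WT, 0.545 ± 0.296 CPM in KO1 and 8.08 ± 0.4 CPM in KO2 (SD, n = 3 each). *Pls1*, the plastin of microvilli, went from 82.5 ± 6.82 CPM to 0.145 ± 0.0372 CPM in KO1 and 1.77 ± 0.636 CPM in KO2. *Eps8*, an actin capping protein, was at 88.3 ± 12.1 CPM in WT, 16.7 ± 0.839 CPM in KO1 and 62.6 ± 1.9 CPM in KO2. *Rab27a* and its effector *Sytl4* went the other way, with *Rab27a* at 1.88 ± 0.508, 2.39 ± 0.525 and 0.179 ± 0.0689 CPM and *Sytl4* at 2.5 ± 0.239, 15.7 ± 0.877 and 0.836 ± 0.0721 CPM in WT, KO1 and KO2.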
